A study of Homo sapiens with 18 samples.

Results

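GM12878 cells in which p52 was knocked out were set against GM12878 cells with a non-targeting guide. GM12878 is a lymphoblastoid line, that is, human B cells transformed by Epstein-Barr virus (EBV), whose growth depends on NF-kB switched on by the viral protein LMP1. The comparison takes 6 of the series' 18 RNA-seq libraries, 3 of the p52 knockout and 3 of the control. The other 12 libraries, 3 each of the p50, cRel-labelled, RelA and RelB-labelled knockouts, entered the same fit, share its estimate of the spread and serve to ask which genes stood apart in the p52 knockout. Of 17155 genes in the table, the 12381 with a mean of at least 10 normalised reads over the 18 libraries were tested. UGDH-AS1 lay just inside that limit with a mean of 10.005 and NT5C1A just outside it with 9.9945.

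Each group received a guide by lentivirus, then puromycin at 3 µg/ml for 5 days, and loss of the subunit was checked by immunoblot, per the labels' protocols. The labels give every library, controls included, the genotype wildtype LMP1. That label does not give the level of LMP1, and whether this was equal in both groups was not tested. The cRel and RelB groups are named by their labels because the mRNA of the targeted gene was not lower there by more than the spread between libraries. REL averaged 1298 ± 17 in the cRel-labelled libraries and 1376 ± 457 in the control, and RELB averaged 4107 ± 170.3 in the RelB-labelled libraries and 3319 ± 158 in the control. The sources used here do not give the guide sequences or the cut sites. Values are normalised read counts, which are reads divided by a single size factor per library. The labels call the replicates biological without saying how they were grown apart, so p-values measure the spread between these libraries, which may be technical.

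NF-kB is a family of dimers. In the canonical pathway, IkB proteins hold dimers of RelA or cRel with p50 in the cytoplasm until the IKK complex removes them. In the non-canonical pathway, receptors such as CD40, the BAFF receptor and the lymphotoxin beta receptor stabilise the kinase NIK, which acts through IKK-alpha on p100, the precursor encoded by NFKB2. Processing of p100 releases p52, which pairs with RelB. The p100 precursor also acts as an inhibitor that retains other subunits, and p52 has no activation domain of its own. A guide against NFKB2 can therefore affect both p100 and p52, and LMP1 is known to drive both pathways.

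The 6 libraries held 18395757 to 30462838 reads in the p52 knockout and 20945886 to 37473129 in the control, and the shallowest of all 18 held 15179664. Library 3 of each group was the deepest of its group and stood apart from its companions in transcript length. The rank correlation, across 12363 genes, of a library's deviation from its group with length was -0.18 in p52 knockout 3 and -0.20 in control 3, and 0.10 to 0.16 in the other 4. The summed level of 12 defining B-cell markers was 127230 to 136530 in the p52 knockout and 122670 to 138630 in the control. The 10 monocyte markers summed to 1550 to 1611 in the p52 knockout and 1064 to 1180 in the control, and CD14, with 2.39, 1.16 and 0.720 in the p52 knockout and 1.10, 0.986 and 1.29 in the control, was near 0 in both. T and NK cell markers summed to 609.8 to 675 in the p52 knockout and 503 to 674 in the control, and fibroblast and epithelial markers to 1531 to 1701 in the p52 knockout and 1345 to 1520.1 in the control. The part of any of these in the results was not tested. Bulk values cannot tell fewer cells of a type from less RNA per cell.

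The p52 knockout differed from the control at 6295 of the 12381 genes tested, or 50.8%, by limma at an adjusted p under 0.05. Of these 3028 rose, or 24.5% of the genes tested, and 3267 fell, or 26.4%. Changes of at least 2-fold were found at 605 genes, or 4.89%, with 522 genes higher, or 4.22%, and 83 lower, or 0.670%. The 3 knockout libraries lay above all 3 controls at 3196 genes, or 25.8%, and below all of them at 3310, or 26.7%. The median log2 fold change over all genes tested was 0.00, which the scaling by size factors tends to set and which therefore does not show that rises and falls balance. The counts of each gene group below are read against these shares.

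The targeted gene was lower in its own knockout. NFKB2 (ENSG00000077150), which encodes p100 and p52, had 6508, 6171 and 6281 normalised reads in the p52 knockout libraries 1 to 3, against 8578, 8698 and 8422 in the controls. All 3 knockout libraries lay below all 3 controls. NFKB2 fell 1.36-fold (log2 fold change -0.44, SE 0.06, adjusted p = 1.5e-06), a value of the mRNA that does not measure p100 or p52 protein. Against the other groups NFKB2 was lower than in the p50 knockout (8950.2 ± 328), the cRel-labelled libraries (9411 ± 571) and the RelB-labelled libraries (10862 ± 430.2). The RelA knockout had 6671 ± 226, a difference of -0.08 on the log2 scale that did not pass the test (adjusted p = 0.26).

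The partner of p52 moved the other way. RELB stood at 4296, 4281 and 4204 in the p52 knockout libraries and at 3422, 3137 and 3399.6 in the controls. The groups did not overlap, and RELB rose 1.28-fold (log2 fold change 0.36, SE 0.06, adjusted p = 5.3e-05). RELA, the main activating subunit of the canonical pathway, had 2788, 2916 and 2364 in the p52 knockout and 2237, 2175 and 2212 in the control, with every knockout library higher (log2 fold change 0.28, SE 0.06, adjusted p = 0.001). NFKB1, the gene of p50, averaged 6416 ± 534 in the p52 knockout and 7066 ± 305 in the control and did not pass the test (log2 fold change -0.14, adjusted p = 0.057). That value passed without p52 knockout 1, with an adjusted p of 0.0095, and with the replicate number as a block, with 0.032. REL, the gene of cRel, had 1845, 1676 and 1097 in the p52 knockout and 1554, 1717 and 856 in the control, and library 3 was the lowest of each group (log2 fold change 0.19, SE 0.19, adjusted p = 0.41).

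Of 20 tested genes of the non-canonical pathway, 10 rose and 5 fell, or 50% and 25%, against 24.5% and 26.4% of all genes. Their median log2 fold change was 0.17, or 0.10 without control 3. The count of rises was 8 without p52 knockout 2, without control 3, without replicate 3 of both groups or with the 6 libraries alone. The receptors and ligands at the top of the pathway held the largest rises. LTB, the membrane-bound lymphotoxin beta subunit, had 292, 387 and 458 in the p52 knockout libraries and 143, 172 and 163 in the controls. No control reached the lowest knockout library. LTB rose 2.34-fold (log2 fold change 1.23, SE 0.16, adjusted p = 1.2e-06). TNFSF13B, which encodes the survival cytokine BAFF, had 230.3, 239 and 267 in the p52 knockout, against 118, 118 and 134 in the control, a 1.98-fold rise without overlap (adjusted p = 5.8e-07). Its receptor gene TNFRSF13C had 729, 808 and 686 in the p52 knockout, against 419, 367 and 338 in the control, and rose by the same factor of 1.98 (adjusted p = 2.6e-08). CD40, the receptor that LMP1 mimics, averaged 3663 ± 293 in the p52 knockout and 2309 ± 123 in the control (log2 fold change 0.66, adjusted p = 1.0e-07). LTA, the soluble partner of LTB, fell, with 500.0, 502 and 451 in the p52 knockout and 675, 585 and 827 in the control (log2 fold change -0.51, adjusted p = 0.0024), but without replicate 3 of both groups its adjusted p was 0.059. TNFRSF8, which encodes CD30, also fell (log2 fold change -0.30).

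**Figure D1:**
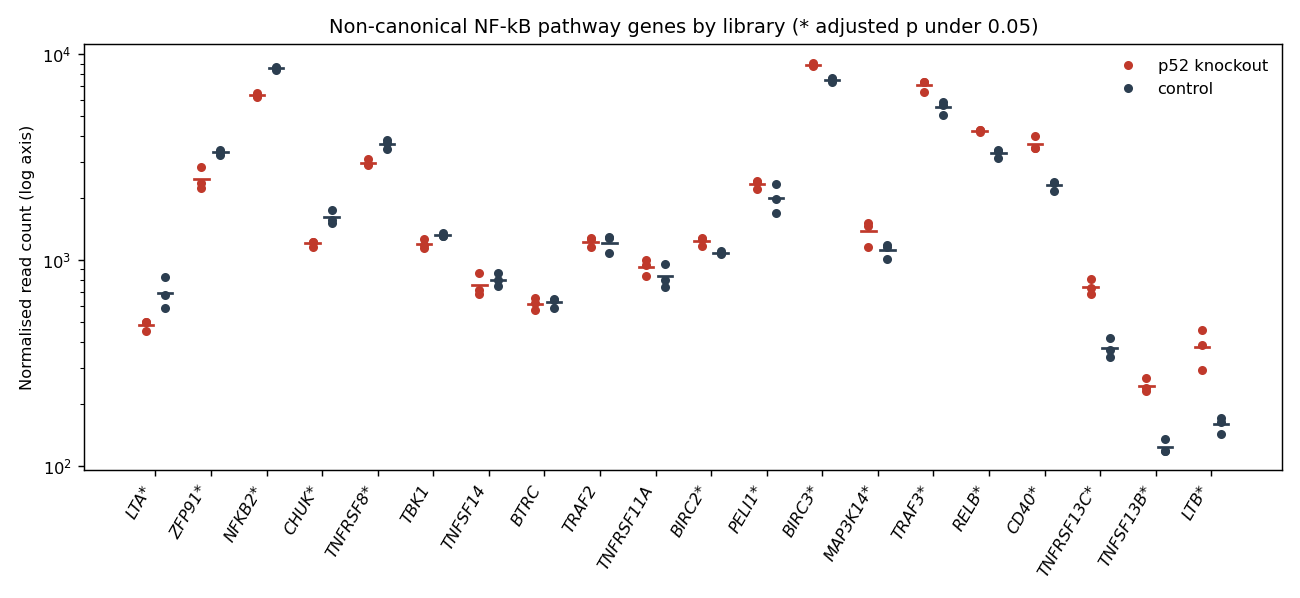
Normalised read counts (log axis) of the 20 tested non-canonical pathway genes in the 3 p52 knockout libraries (red, left of each pair) and the 3 controls (dark, right), with a line at each mean and genes ordered by log2 fold change. LTA, at 484 on average against 695, stands at the left end, and LTB, at 379 against 159, at the right end.

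Further down the pathway the changes were small. CHUK, the gene of IKK-alpha, the kinase that marks p100 for processing, had 1159, 1225 and 1228 in the p52 knockout libraries and 1567, 1758 and 1522 in the controls. Every knockout library was lower, and CHUK fell 1.34-fold (log2 fold change -0.42, SE 0.07, adjusted p = 1.7e-05). MAP3K14, which encodes NIK, averaged 1377 ± 197 in the p52 knockout and 1117 ± 93 in the control, with 1 knockout library inside the control range, and rose 1.23-fold (adjusted p = 0.0064). The genes of the ubiquitin ligase complex that degrades NIK rose by little or did not pass. TRAF3 rose 1.28-fold to 7067 ± 467 in the p52 knockout, against 5543 ± 411 in the control, BIRC3 1.19-fold and BIRC2 by 0.19 on the log2 scale, while TRAF2 averaged 1230.2 ± 64 in the p52 knockout and 1215 ± 118 in the control (adjusted p = 0.85). The BIRC2 call was lost in 7 of the 16 alternative settings, among them without p52 knockout 2 or 3 or without any single control, with adjusted p-values up to 0.17. ZFP91, described as a ligase that stabilises NIK, fell 1.36-fold. PELI1 rose 1.18-fold with overlapping groups and lost its call in 5 of those 16 settings, among them without p52 knockout 1 (adjusted p = 0.056), without p52 knockout 2 (0.058) and without control 3 (0.17). TBK1, TNFSF14, BTRC and TNFRSF11A did not pass, with log2 fold changes of -0.14, -0.10, -0.02 and 0.16. TNFRSF11A passed in a single setting, without control 1 (adjusted p = 0.020). LTBR, the lymphotoxin beta receptor, was at 0 in all 3 p52 knockout libraries and at most 1.10 in a control, and TNFRSF12A averaged 10.7 and 7.47, so neither was tested.

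Among the 11 NF-kB and IkB genes, 3 rose and 4 fell, or 27.3% and 36.4%, against 24.5% and 26.4% of all genes. The IkB genes did not move together. NFKBIA, the classical inhibitor and a direct target of NF-kB, had 5156, 4991 and 5182 in the p52 knockout and 6812, 6730.1 and 7313 in the control, below every control (log2 fold change -0.44, adjusted p = 1.1e-05). NFKBIB fell by 0.36 and NFKBIZ by 0.43 on the log2 scale. NFKBIE, the inhibitor IkB-epsilon, had 3237, 2965 and 3409.8 in the p52 knockout and 2346, 2082 and 2270.5 in the control, above every control (log2 fold change 0.52, adjusted p = 4.2e-06). BCL3, a coactivator that binds p52 and p50 homodimers, averaged 1212 ± 79 in the p52 knockout and 1185 ± 111 in the control (log2 fold change 0.03, adjusted p = 0.76), and NFKBID did not pass either (log2 fold change 0.04).

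Of 29 genes of canonical signalling and its feedback 13 were higher and 3 lower, with a median log2 fold change of 0.10. Without p52 knockout 1 the counts were 12 and 5 and the median was 0.04, and without control 2 the median was 0.15 and with quantile normalization 0.19. TNIP2, a ubiquitin-binding brake that works with the deubiquitinase A20, rose to 2378 ± 99 in the p52 knockout, against 1748 ± 70 in the control (log2 fold change 0.44, adjusted p = 2.1e-05). TNIP1 averaged 12475 ± 485 in the p52 knockout and 9729 ± 632 in the control (log2 fold change 0.36). OTULIN, which removes linear ubiquitin chains, rose 1.27-fold, and CYLD, another deubiquitinase of the pathway, rose to 5387 ± 155 in the p52 knockout, against 4421 ± 291 in the control (CYLD, like MAP3K8 and TNFAIP3 below, was chosen after its values were seen). MAP3K8, the kinase TPL2, which p105 holds inactive, rose 1.18-fold (adjusted p = 0.0076). TNFAIP3, the gene of A20, averaged 11436 ± 1316 in the p52 knockout and 12238 ± 872 in the control and did not pass (log2 fold change -0.10, adjusted p = 0.29).

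Among the 33 tested genes on a list of NF-kB targets of EBV-infected B cells, 14 were higher and 9 lower, or 42.4% and 27.3%, around a median of 0.11. This list was compiled with earlier results of these data known, so its counts are a description. SLAMF1 had 5219, 5638 and 5948 in the p52 knockout libraries and 2989.5, 2599.6 and 2966 in the controls, a 1.97-fold rise with no overlap (adjusted p = 9.4e-10). PLEK, a substrate of protein kinase C in blood cells, averaged 19380.0 ± 897 in the p52 knockout and 11448 ± 473 in the control (log2 fold change 0.76). CCR7, the receptor that guides B cells into lymph nodes, averaged 14155 ± 367 in the p52 knockout and 8458 ± 319.8 in the control (log2 fold change 0.74), and EBI3, a subunit of IL-27 and IL-35, rose 1.63-fold. The inflammatory cytokine gene TNF went the other way. TNF had 187, 196 and 202 in the p52 knockout and 358, 350.0 and 432 in the control, a 1.93-fold fall (adjusted p = 2.4e-07). CCL22, a chemokine for regulatory T cells, fell to 2120.5 ± 12 in the p52 knockout, against 2559 ± 245 in the control, and lost the call after quantile normalization (adjusted p = 0.066).

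Promoter windows were examined for genes of the NF-kB lists that were higher in the p52 knockout than in each of the other 5 groups. Only windows that held a consensus kappaB motif are shown, so the motif and the rise were both conditions of the choice. The motif searched was GGG, a purine, any 2 bases, 2 pyrimidines and CC, on both strands. Windows run from 250 bases before to 50 bases after the gene start, from RefSeq on GRCh38.p14, and capitals mark the motif. LTB lies at chr6:31582376-31582675 on the minus strand and holds 2 matches, the first beginning 86 bases before the start and the second 38 bases after it. MAP3K8 lies at chr10:30433771-30434070 on the plus strand with a match 29 bases before the start. CFLAR lies at chr2:201118466-201118765 on the plus strand with a match 97 bases before the start.
LTB: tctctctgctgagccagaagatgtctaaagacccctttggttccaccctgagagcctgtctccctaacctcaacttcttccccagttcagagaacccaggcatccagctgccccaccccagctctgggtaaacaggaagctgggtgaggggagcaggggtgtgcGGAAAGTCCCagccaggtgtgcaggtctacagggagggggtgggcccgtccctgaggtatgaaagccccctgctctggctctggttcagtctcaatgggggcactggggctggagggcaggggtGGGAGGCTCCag
MAP3K8: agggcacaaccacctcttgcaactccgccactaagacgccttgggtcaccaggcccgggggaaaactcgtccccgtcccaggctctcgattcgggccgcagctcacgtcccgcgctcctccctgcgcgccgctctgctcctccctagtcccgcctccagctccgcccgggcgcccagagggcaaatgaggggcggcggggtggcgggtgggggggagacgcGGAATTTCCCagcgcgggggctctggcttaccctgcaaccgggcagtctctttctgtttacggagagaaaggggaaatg
CFLAR: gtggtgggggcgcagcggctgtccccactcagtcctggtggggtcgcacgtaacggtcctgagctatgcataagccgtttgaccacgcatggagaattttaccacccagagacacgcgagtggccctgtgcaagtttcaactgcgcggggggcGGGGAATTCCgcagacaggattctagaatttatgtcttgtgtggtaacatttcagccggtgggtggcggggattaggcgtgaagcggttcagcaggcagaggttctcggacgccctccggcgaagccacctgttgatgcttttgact
The windows of NFKB2, TNIP2, OTULIN, FAS, PLEK and PTPN1 held no match. CCL17, also a gene of these lists that was higher than in each other group, had no window and was not searched. Of the 242 genes higher in the p52 knockout than in each other group, 185 had a window in the table, and 16.2% of these held the motif. The share was 9.30% of 129 windows of the 156 genes lower in the p52 knockout than in each other group, 12.9% of 9953 windows of all genes tested and 10.8% of all 27305 windows. A looser form, GGG, any 5 bases and CC, which includes the consensus, was in 77.8% of the higher set, 68.2% of the lower set and 73.4% of all genes tested. These are matches of letters and not sites of binding.

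Genes that protect from cell death were mostly higher, with 7 of 10 up and 2 down. BCL2, the founding survival factor, had 4284, 4660.4 and 4266 in the p52 knockout libraries and 2812, 2621 and 2122 in the controls. Every knockout library was higher, and BCL2 rose 1.76-fold (log2 fold change 0.81, SE 0.09, adjusted p = 1.6e-07). CFLAR, which encodes the caspase-8 inhibitor cFLIP, had 3678, 3881 and 3734 in the p52 knockout and 2641, 2640.0 and 2530.3 in the control, a 1.45-fold rise without overlap (adjusted p = 2.6e-07). BCL2L2 rose 1.45-fold. BCL2L1, the gene of BCL-xL, averaged 1569 ± 156 in the p52 knockout and 2176 ± 117 in the control and fell 1.39-fold. BIRC5, the gene of survivin, which is also a mitotic protein, fell 1.70-fold. MCL1, chosen after its values were seen, averaged 5254 ± 294 in the p52 knockout and 5252 ± 539 in the control and did not pass (adjusted p = 0.97).

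Of 18 death-promoting genes 4 were higher and 5 lower, shares of 22.2% and 27.8% that lie near those of all genes. Without p52 knockout 1 the counts were 7 higher and 5 lower, and without p52 knockout 2 they were 3 and 3. BBC3, which encodes the BH3-only protein PUMA, averaged 833 ± 49 in the p52 knockout and 452 ± 21 in the control (log2 fold change 0.88, adjusted p = 6.3e-08). FAS, a death receptor, averaged 2911 ± 297 in the p52 knockout and 1813 ± 89 in the control (log2 fold change 0.68), and TNFRSF10B, the TRAIL receptor DR5, rose 1.32-fold. PMAIP1, the gene of NOXA, averaged 4676 ± 420.3 in the p52 knockout and 6138 ± 30 in the control and fell 1.32-fold.

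Surface receptors rose at many members. Of 24 tested TNF receptor superfamily genes, 16 rose and 3 fell (median 0.55), or 66.7% and 12.5%, against 24.5% and 26.4% of all genes. The count of rises was 13 after quantile normalization or without p52 knockout 2. With a mean of at least 100, 20 were tested and 12 rose, with a median of 0.34. TNFRSF14, the receptor HVEM, had 2597, 3005 and 2919 in the p52 knockout libraries, against 1374, 1202 and 1315 in the controls. The lowest knockout library was well above the highest control, and TNFRSF14 rose 2.19-fold (log2 fold change 1.13, SE 0.07, adjusted p = 2.2e-10). TNFRSF10D, a decoy receptor for TRAIL whose reads can be shared with the similar TNFRSF10C, averaged 1501 ± 231 in the p52 knockout and 599.7 ± 94 in the control (log2 fold change 1.32), and TNFRSF25 averaged 201 ± 30 in the p52 knockout and 84.1 ± 14 in the control (log2 fold change 1.25). The 3 that fell were TNFRSF17, TNFRSF13B and TNFRSF8. TNFRSF17 encodes BCMA, a receptor of plasma cells, and TNFRSF13B encodes TACI. They averaged 2723 ± 641 in the p52 knockout and 4183 ± 513 in the control for TNFRSF17 (log2 fold change -0.64) and 2766 ± 49 in the p52 knockout and 3536 ± 387 in the control for TNFRSF13B (log2 fold change -0.35), both named after their values were seen. The 3 receptors for BAFF thus did not move together, since TNFRSF13C rose.

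Costimulatory and checkpoint molecules rose at 12 of 17 genes and fell at 1, TNFSF4, whose call was lost without p52 knockout 1. CD274, which encodes the checkpoint ligand PD-L1, had 1079.9, 1142 and 1099 in the p52 knockout and 654, 538 and 615 in the control. Each knockout library exceeded each control (log2 fold change 0.88, adjusted p = 1.7e-08). CD200, an inhibitory ligand, averaged 946 ± 71 in the p52 knockout and 504 ± 46 in the control (log2 fold change 0.91), and C10orf54, the gene of the checkpoint molecule VISTA, averaged 302 ± 12 in the p52 knockout and 129.6 ± 9.9 in the control (log2 fold change 1.22). TNFSF4, the OX40 ligand, named after its values were seen, averaged 89.7 ± 20 in the p52 knockout and 121 ± 0.61 in the control (log2 fold change -0.45).

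All 6 SLAM family genes that passed rose, of 7 tested, with a median log2 fold change of 0.93. SLAM receptors are homotypic contact receptors of lymphocytes. SLAMF6 averaged 2203 ± 129.9 in the p52 knockout and 1123 ± 55 in the control and CD84 averaged 1124 ± 102 in the p52 knockout and 589 ± 53 in the control. CD244 rose 2.43-fold and SLAMF7 1.43-fold. LY9, the member that did not pass, named after its values were seen, had a log2 fold change of 0.11. The count was 6 in 15 of the 16 alternative settings and 5 of 6 tested with a mean of at least 100.

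Of 35 interleukin and interferon receptor genes, 19 rose and 4 fell. IFNGR1, a chain of the interferon gamma receptor, had 4865, 5054 and 5502 in the p52 knockout libraries, against 3177, 2914 and 3081 in the controls, without overlap (log2 fold change 0.75, adjusted p = 5.5e-09). IL2RG, the shared gamma chain, averaged 7399.9 ± 457 in the p52 knockout and 4824 ± 454 in the control (log2 fold change 0.62). IL3RA averaged 1705 ± 225 in the p52 knockout and 836 ± 114 in the control, and IL13RA1 and CSF2RB rose 2.08- and 2.38-fold. After quantile normalization 18 rose and 8 fell.

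**Figure D2:**
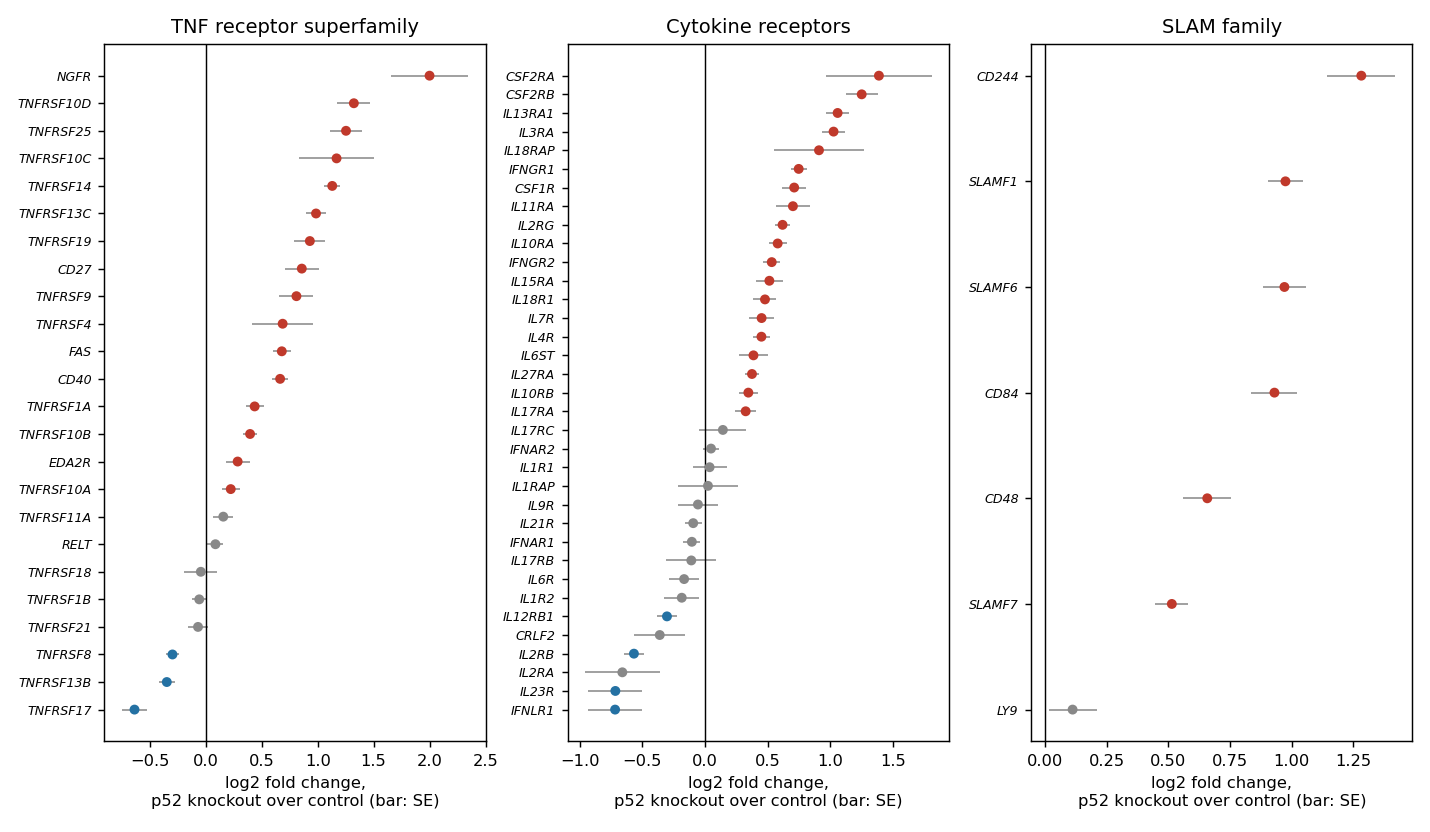
Log2 fold changes, p52 knockout over control (3 libraries each), for tested TNF receptor superfamily, cytokine receptor and SLAM family genes. Bars are standard errors from the limma fit of all 18 libraries. Genes that rose are in red, that fell in blue and that were not called in grey. Most points lie right of 0, with NGFR highest in the TNF receptor family at 2.00 and CD244 highest in the SLAM family at 1.28.

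Soluble mediators were fewer. Of 11 tested interleukin genes 6 rose and 1 fell. IL7, a growth factor of lymphocytes, had 285, 282 and 277 in the p52 knockout libraries, against 115, 92.7 and 97.6 in the controls, and IL15, another such factor, had 364, 356 and 387 in the p52 knockout, against 159.9, 153 and 188 in the control. Neither gene's groups overlapped. IL7 rose 2.76-fold (log2 fold change 1.47, SE 0.13, adjusted p = 6.3e-09) and IL15 rose 2.21-fold (adjusted p = 1.2e-08). IL16 and IL32 rose 1.5- and 1.63-fold. Among 11 chemokine ligand genes 4 rose and 2 fell, and 1 fell without p52 knockout 2, control 1 or control 3. CXCL12, the ligand of CXCR4, averaged 797 ± 30 in the p52 knockout and 341 ± 7.8 in the control (log2 fold change 1.22, adjusted p = 3.4e-09). CCL19, a ligand of CCR7, was low, with 21.5, 30.1 and 34.6 in the p52 knockout and 5.51, 1.97 and 8.40 in the control, and rose 5.15-fold on the log2(value + 1) scale (adjusted p = 7.8e-05). CCL20 averaged 213 ± 35 in the p52 knockout and 99.5 ± 15 in the control and CCL17 averaged 39.4 ± 7.3 in the p52 knockout and 11.1 ± 3.6 in the control. Of the chemokine receptors, CXCR3 had 254, 239 and 186 in the p52 knockout and 530.4, 638 and 670.2 in the control, a 2.71-fold fall without overlap. ACKR3, a scavenger of CXCL12, rose 2.47-fold, CCR10 fell 1.36-fold, and CCR1 was near the limit of testing at 2.85 ± 2.0 in the p52 knockout and 20.6 ± 4.1 in the control.

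Innate receptors followed the same side. Of 24 Toll-like and NOD-like receptor pathway genes 16 rose and 2 fell, with a median of 0.42. NLRP1, an inflammasome sensor, had 2567, 2787 and 2497 in the p52 knockout and 1397, 1263 and 1178 in the control (log2 fold change 1.03, adjusted p = 2.4e-09). IRAK2, a kinase of Toll-like receptor signalling, averaged 543 ± 9.8 in the p52 knockout and 249 ± 43 in the control, and NOD2, a sensor of bacterial wall fragments, averaged 467 ± 5.8 in the p52 knockout and 269.7 ± 23 in the control. All 10 tested complement components and receptors rose, with a median of 0.78. The count was 9 by DESeq2, without p52 knockout 1 or without control 2. It was 8 without p52 knockout 2, without control 3 or after quantile normalization, where the median was 0.49. Most of the 10 genes were low. C5AR1 averaged 54.7 ± 4.9 in the p52 knockout and 16 ± 3.9 in the control, CFP averaged 147 ± 37 in the p52 knockout and 55 ± 7.0 in the control, and C3 averaged 59 ± 21 in the p52 knockout and 19.2 ± 5.5 in the control. CD55, which protects cells from complement, was higher in level and averaged 1237 ± 173 in the p52 knockout and 745 ± 53 in the control. Of the 10, 3 had a mean of at least 100 and rose in the fit restricted to such genes. Monocyte markers moved with this group, since CSF1R, ITGAM and VCAN were among the genes that rose while CD14 and LYZ were at most 10.1 in any of the 6 libraries. Their part in the result was not tested.

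Notch pathway genes rose at 11 of 20 and fell at none by limma, with 0 lower also by edgeR and by DESeq2 and 1 lower after quantile normalization. With a mean of at least 100, 13 were tested and 6 rose. RBPJ, the DNA-binding factor through which the viral protein EBNA2 acts, averaged 3901 ± 188 in the p52 knockout and 2769 ± 129 in the control (log2 fold change 0.49, adjusted p = 6.4e-06). The Notch ligands were low and rose most. DLL1 had 70.4, 67 and 69.1 in the p52 knockout libraries, against 11, 9.86 and 9.69 in the controls, and DLL4 had 64.4, 69.4 and 69.8 in the p52 knockout, against 11, 12.8 and 8.40 in the control. Both were far apart between groups, with 6.25- and 5.93-fold rises (adjusted p = 8.4e-08 and 4.7e-09). DTX4, a ubiquitin ligase of the pathway and its most abundant riser, averaged 7618 ± 209 in the p52 knockout and 4119.8 ± 275 in the control (log2 fold change 0.89). JAG1 rose 2.14-fold. Semaphorins, plexins and neuropilins, which guide axons and immune cells, rose at 14 of 19 genes and fell at 1. Without p52 knockout 1 they rose at 11 and fell at 2, and after quantile normalization they rose at 10. With a mean of at least 100, 12 were tested and 8 rose. SEMA4C averaged 1703 ± 121 in the p52 knockout and 1136 ± 35 in the control and PLXNB2 averaged 6970.5 ± 547 in the p52 knockout and 4942 ± 312 in the control.

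**Figure D3:**
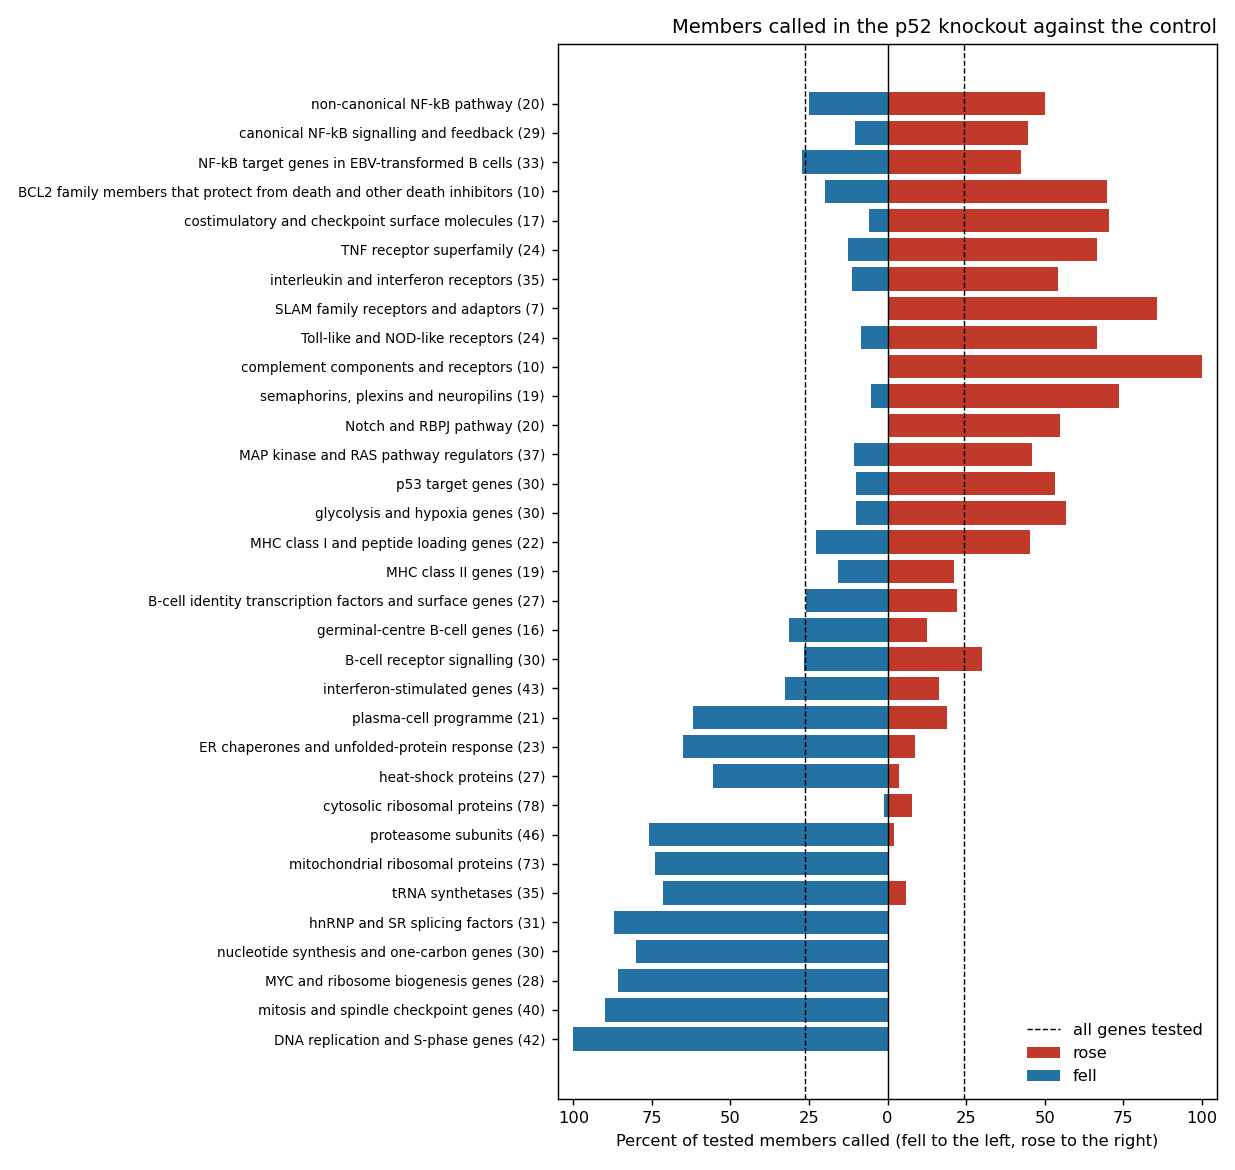
Share of the tested members of each gene list that rose (red, right) or fell (blue, left) in the p52 knockout relative to the control, with the number tested in brackets and dashed lines at the shares over all genes tested, 24.5% and 26.4%. Immune receptor lists extend to the right and growth and biosynthesis lists to the left, up to 42 of 42 replication genes.

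Calls in the growth and biosynthesis lists were mostly falls. All 42 tested DNA replication genes fell, with log2 fold changes of -1.06 to -0.29. CDC45, a component of the replicative helicase, had 902, 967 and 986 in the p52 knockout libraries and 1870.2, 1952 and 2143 in the controls. MCM10 had 804, 806 and 787 in the p52 knockout and 1542, 1717 and 1568 in the control, and RRM2, the S-phase subunit of ribonucleotide reductase, had 4626, 4429 and 4442 in the p52 knockout and 8211, 8833 and 9027 in the control. For all 3 genes the groups were separated by a wide gap, and the falls were 2.09-, 2.01- and 1.93-fold. CDC6 and CLSPN fell 1.92- and 1.93-fold. The adjusted p of each of these 5 was at most 4.1e-10.

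Mitotic genes fell at 36 of 40 and rose at none by limma, edgeR or DESeq2, with a median of -0.53. A single gene rose without p52 knockout 2. AURKA, a spindle pole kinase, averaged 1672 ± 25 in the p52 knockout and 2763 ± 184 in the control (log2 fold change -0.72), and KIF11, the spindle motor, averaged 2796 ± 157 in the p52 knockout and 4739.6 ± 374 in the control (log2 fold change -0.76). HMMR fell 1.75-fold, CCNA2 1.55-fold and TPX2 1.52-fold. The G1 genes fell at 9 of 19 and rose at 3, or fell at 10 and rose at 6 after quantile normalization. CCNE1 and CCNE2, the cyclins E, fell 1.49- and 1.71-fold. CCND1, the gene of cyclin D1, which B cells usually express little, went against its list. It had 1294, 1184 and 1077 in the p52 knockout libraries, against 443, 531 and 445 in the controls. The lowest knockout library had more than any control by a wide margin, and CCND1 rose 2.5-fold (log2 fold change 1.32, SE 0.09, adjusted p = 3.4e-10). CDKN1C, the CDK inhibitor p57, was low and rose, with 39.4, 79.8 and 61.2 in the p52 knockout and 14.3, 5.91 and 9.05 in the control. CDK6 and CDK4, named after their values were seen, averaged 3976 ± 730.3 in the p52 knockout and 5223 ± 927 in the control for CDK6 and 1535 ± 113 in the p52 knockout and 1888 ± 157 in the control for CDK4 and fell.

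MYC and ribosome biogenesis genes fell at 24 of 28 and rose at none by limma, edgeR or DESeq2. MYC itself, named after its values were seen, had 6446, 5473 and 5563 in the p52 knockout libraries and 8017, 7339 and 7983 in the controls. The groups did not overlap (log2 fold change -0.42, adjusted p = 3.9e-04). NOP56, a core protein of box C/D snoRNPs, averaged 4889 ± 70 in the p52 knockout and 7918 ± 874 in the control (log2 fold change -0.69), and NCL, which encodes nucleolin, averaged 30378 ± 905 in the p52 knockout and 45802 ± 1221 in the control (log2 fold change -0.59). LYAR fell 1.77-fold. Nucleotide synthesis and one-carbon genes fell at 24 of 30. CTPS1 and RRM1 fell 1.58- and 1.52-fold.

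Protein production and turnover followed, with an exception. Mitochondrial ribosomal protein genes fell at 54 of 73, proteasome subunits at 35 of 46, tRNA synthetases at 25 of 35, hnRNP and SR splicing factors at 27 of 31 and DEAD and DEAH helicases at 33 of 50. The number of mitochondrial ribosomal genes called depended on single libraries, with 29 of 73 without control 3, 30 without p52 knockout 2 and 35 without p52 knockout 1. Their median log2 fold change stayed below 0, at -0.28 with all libraries and -0.21, -0.24 and -0.24 in those settings, and none rose. SRSF1, a splicing factor, averaged 7126 ± 176 in the p52 knockout and 11391 ± 336 in the control (log2 fold change -0.68). PSMD1, a proteasome regulatory subunit, averaged 3494 ± 152 in the p52 knockout and 6089 ± 483 in the control (log2 fold change -0.80), and DHX9, an RNA helicase, averaged 6299.8 ± 156 in the p52 knockout and 9950.3 ± 423 in the control (log2 fold change -0.66). The cytosolic ribosomal proteins were the exception, with 6 of 78 higher and 1 lower around a median of 0.11. That count moved with the libraries and the scaling. It was 0 without p52 knockout 3 or without control 2, 1 without control 1, 27 without p52 knockout 1, 29 without control 3 and 48 after quantile normalization, and the median was -0.01 without p52 knockout 3. RPL17 was the one that fell, with 193 ± 22 in the p52 knockout and 326 ± 54 in the control, and its reads can be shared with a readthrough gene.

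**Figure D4:**
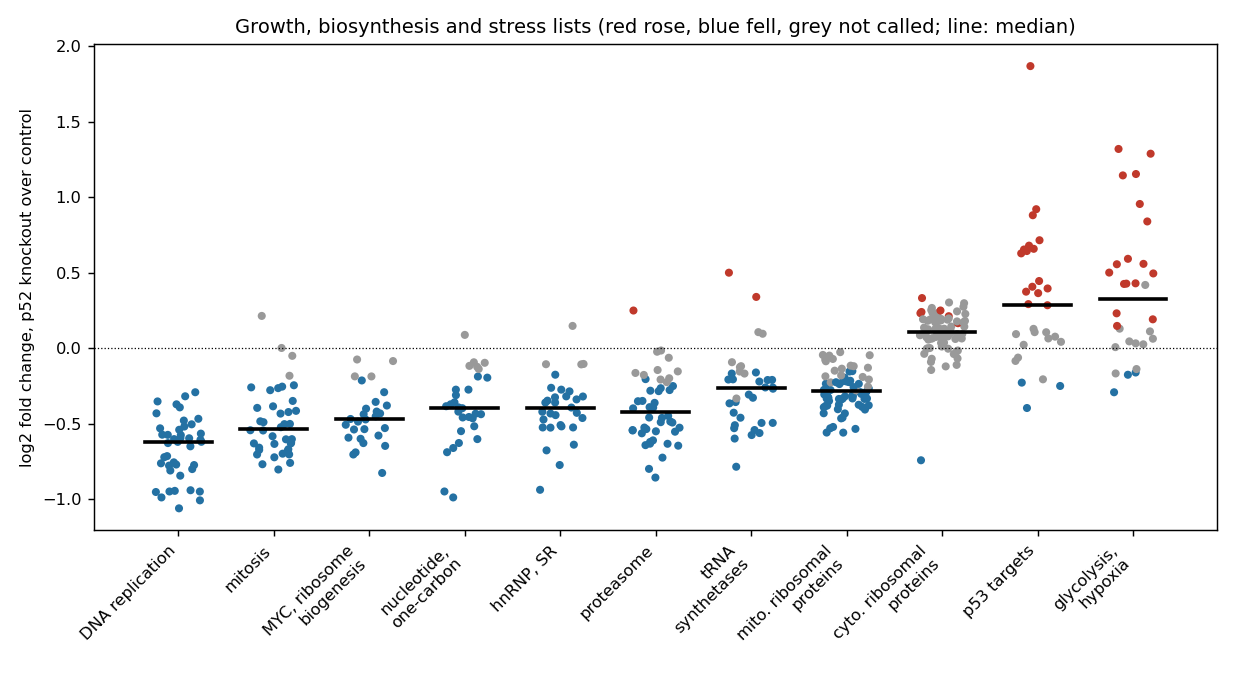
Log2 fold changes, p52 knockout over control, of every tested member of 11 growth, biosynthesis and stress lists, with a line at each list's median. The replication list has the lowest median, -0.62, the cytosolic ribosomal proteins sit near 0, and the glycolysis and p53 lists lie above 0.

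Secretory and folding genes also fell. Of 23 endoplasmic reticulum chaperone and unfolded-protein genes 15 fell and 2 rose. HSPA5, the chaperone BiP, had 15371, 17053 and 17185 in the p52 knockout libraries and 29882, 32908 and 31254 in the controls, a 1.90-fold fall without overlap (adjusted p = 4.8e-10). CALR averaged 14052 ± 106 in the p52 knockout and 26222 ± 2113 in the control (log2 fold change -0.90), and PDIA6 and PDIA4 fell 1.68- and 1.69-fold. Heat-shock genes fell at 15 of 27 and rose at 1, a rise lost without p52 knockout 1 or 2 or without control 2 or 3. HSPA8, the constitutive HSP70, averaged 26792 ± 1276 in the p52 knockout and 49618 ± 4918 in the control (log2 fold change -0.89), HSPH1 averaged 3434 ± 325 in the p52 knockout and 6579.6 ± 821 in the control (log2 fold change -0.93), and CHORDC1, a cochaperone of HSP90, had 566, 713 and 769 in the p52 knockout and 1341, 1638 and 1604 in the control.

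Plasma-cell genes fell at 13 of 21 and rose at 4. PRDM1, which encodes BLIMP1, the repressor that drives plasma-cell differentiation, had 357, 451 and 329.8 in the p52 knockout libraries and 830.4, 979 and 899.7 in the controls. The highest knockout library was below the lowest control, and PRDM1 fell 2.39-fold (log2 fold change -1.26, SE 0.10, adjusted p = 2.3e-09). DERL3 fell 1.63-fold. SDC1, the plasma-cell marker CD138, went the other way, with 1566 ± 105 in the p52 knockout and 925 ± 38 in the control, a 1.69-fold rise. XBP1 and IRF4, named after their values were seen, did not pass, with log2 fold changes of 0.03 and -0.00.

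Of 16 germinal-centre genes 2 were higher and 5 lower, or 12.5% and 31.25%, against 24.5% and 26.4% of all genes. GCSAM, a B-cell motility regulator, averaged 6204 ± 481 in the p52 knockout and 3027 ± 199 in the control (log2 fold change 1.03), and KLHL6 averaged 3698 ± 323 in the p52 knockout and 1807 ± 79 in the control (log2 fold change 1.03). HHEX and LMO2 fell 2.06- and 1.65-fold. Of 27 B-cell identity genes 6 rose and 7 fell, shares of 22.2% and 25.9% that lie near those of all genes. IKZF1 averaged 2518 ± 202 in the p52 knockout and 4061 ± 357 in the control (log2 fold change -0.69), and EBF1 averaged 1535 ± 104 in the p52 knockout and 1138 ± 58 in the control (log2 fold change 0.43). PAX5 fell by 0.20 on the log2 scale, a call lost in 9 of 16 alternative settings, among them edgeR (adjusted p = 0.064), DESeq2 (0.053) and without p52 knockout 2 or 3 or without control 1 or 2 (0.051 to 0.28). Of 30 B-cell receptor signalling genes 9 were higher and 8 lower, or 30.0% and 26.7%, again near the shares of all genes, and quantile normalization left 10 higher and 4 lower. BLK, a SRC-family kinase, averaged 7586 ± 323 in the p52 knockout and 4111 ± 208 in the control (log2 fold change 0.88, adjusted p = 9.4e-10), CD22, an inhibitory lectin, rose 1.45-fold, and VAV3 fell 1.68-fold.

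Of 22 class I and peptide-loading genes 10 rose and 5 fell. Among the heavy chains HLA-F was at 2365 ± 294 in the p52 knockout and 1613 ± 175 in the control (log2 fold change 0.55), while HLA-B, named after its values were seen, averaged 43075 ± 5686 in the p52 knockout and 40633 ± 4029 in the control (adjusted p = 0.47), although reads of near-identical HLA genes cannot be assigned with certainty. Of the class II genes 4 of 19 rose and 3 fell, or 21.1% and 15.8%, both below the shares of all genes. HLA-DMB and HLA-DMA, which edit the peptides bound to class II, were the lowest, with 1132 ± 46 in the p52 knockout and 1969.5 ± 264 in the control for HLA-DMB (log2 fold change -0.79) and 2647 ± 67 in the p52 knockout and 3726 ± 346 in the control for HLA-DMA (log2 fold change -0.49). Interferon-stimulated genes fell at 14 of 43 and rose at 7, or 32.6% and 16.3%, against 26.4% and 24.5% of all genes. With a mean of at least 100 they fell at 9 of 35 and rose at 7. Those with the largest falls were low, with IFIT1 at 17.9, 8.09 and 6.48 in the p52 knockout and 43, 49.3 and 51.7 in the control, and IFI44L at 5.97, 5.78 and 6.48 in the p52 knockout and 24.3, 30.6 and 26.5 in the control. The groups were separate for both. OAS2 averaged 704 ± 15 in the p52 knockout and 1043 ± 59 in the control (log2 fold change -0.57), and PARP14 rose, with 4646 ± 489 in the p52 knockout and 2388 ± 368 in the control (log2 fold change 0.97).

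Genes induced by p53 rose at 16 of 30 and fell at 3 (median 0.29). TP53INP1, a stress-induced regulator of p53 and autophagy, had 2135, 2742 and 2272 in the p52 knockout libraries and 807, 617 and 547 in the controls. Each knockout library was far above each control, and TP53INP1 rose 3.65-fold (log2 fold change 1.87, SE 0.15, adjusted p = 2.4e-09). ZMAT3 averaged 8472 ± 594 in the p52 knockout and 5176 ± 575 in the control (log2 fold change 0.71), and PHLDA3 rose 1.57-fold. A pair of well-known targets did not pass. CDKN1A, the gene of p21, averaged 8656 ± 165 in the p52 knockout and 7929 ± 448 in the control (adjusted p = 0.06), and MDM2 averaged 4977 ± 585 in the p52 knockout and 4647 ± 763 in the control (adjusted p = 0.38), both named after their values were seen.

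Glycolysis and hypoxia genes rose at 17 of 30 and fell at 3. The count of falls was 5 without control 2 and 1 without p52 knockout 2, without control 1, without control 3 or after quantile normalization. ALDOC, a glycolytic aldolase, had 4402, 4288 and 4303 in the p52 knockout libraries, against 2159, 1404 and 1841 in the controls, and PFKFB4, which makes an activator of glycolysis, had 1766, 2126 and 1749 in the p52 knockout, against 949, 661 and 672 in the control. In both genes the groups were far apart, with rises of 2.44- and 2.49-fold. ENO2 rose 1.94-fold, NDRG1 2.22-fold and BNIP3L, a mitophagy receptor, 1.79-fold. Regulators of MAP kinases and RAS rose at 17 of 37 and fell at 4, or at 2 without p52 knockout 3. MAPK11, the p38-beta kinase, averaged 848 ± 47 in the p52 knockout and 433 ± 35 in the control (log2 fold change 0.97), RASAL1, a RAS GTPase-activating protein, averaged 164 ± 12 in the p52 knockout and 53 ± 20 in the control (log2 fold change 1.68), and SPRED1 averaged 309.7 ± 12 in the p52 knockout and 173 ± 23 in the control (log2 fold change 0.85).

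The genes with the largest changes at a mean of at least 100 in the higher group came from many functions. Among the 15 that rose most, L1CAM, a neural adhesion molecule, had 91.9, 139 and 158 in the p52 knockout libraries and 8.82, 5.91 and 7.11 in the controls. ABCC3, an export pump for organic anions, had 106, 123 and 105 in the p52 knockout and 7.72, 8.87 and 14.9 in the control, and ATP4A, the catalytic subunit of the gastric proton pump, had 254, 354 and 297 in the p52 knockout and 44.1, 27.6 and 22.6 in the control. All knockout libraries lay far above all controls, and the rises were 15.5-, 10.1- and 9.60-fold on the log2(value + 1) scale (adjusted p = 9.9e-09, 7.0e-10 and 4.1e-10). TMPRSS6, a membrane serine protease of iron control, rose 6.52-fold, PLCH2 6.05-fold, MAP7D2 5.26-fold, DBNDD1 5.01-fold, NAV2 4.98-fold and CDK18 4.97-fold. NRXN3, SPTB, PTPRF, SPATA31D1, ADAMTS13 and HSPG2 rose 3.77- to 4.28-fold, and SPATA31D1 belongs to a family of near-identical copies. PTPRF, a receptor phosphatase, was the most abundant of them, with 676 ± 130.2 in the p52 knockout and 168 ± 30 in the control.

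The 15 that fell most held several lymphocyte genes besides CXCR3 and PRDM1. SLC2A5, the fructose transporter, had 552, 503 and 472 in the p52 knockout libraries and 1308, 1335 and 1461 in the controls, without overlap (2.69-fold, adjusted p = 5.7e-11). S1PR1, the receptor for sphingosine 1-phosphate that governs exit from lymphoid tissue, had 588, 539.8 and 455 in the p52 knockout and 1127, 1227 and 1216 in the control, a 2.26-fold fall. FAM129C, a B-cell gene, averaged 179 ± 2.8 in the p52 knockout and 461 ± 56 in the control, and its relative FAM129A averaged 508 ± 86 in the p52 knockout and 1122 ± 94 in the control. C3orf20 and BCAR3, an adaptor in cell adhesion signalling, fell 2.92- and 2.91-fold, and p52 knockout 1 stood above its companions for BCAR3, with 210.0, 109.8 and 102 over the 3 libraries. NAPSB, a transcribed pseudogene whose reads can be shared with its parent gene, fell 2.32-fold. DACT1, SORT1, FAM135B, ARHGAP42 and DENND5B fell 2.15- to 2.44-fold.

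A gene was counted as standing apart in the p52 knockout when it differed in the same direction from the control and, in direct tests, from each of the 4 other knockouts. There were 398 such genes, 242 higher, or 1.95% of the genes tested, and 156 lower, or 1.26%. The number called in the single contrasts was 2749, or 22.2%, against the p50 knockout, 5681, or 45.9%, against the cRel-labelled libraries, 6494, or 52.5%, against the RelA knockout and 5622, or 45.4%, against the RelB-labelled libraries. The p50 knockout was therefore the group with the fewest differences from the p52 knockout. These contrasts chose the genes, so their values below are descriptions. Of the 242 higher genes 233 were protein coding, 83 differed from the control by at least 2-fold, and the median log2 fold change was 0.74. The 156 lower genes had a median of -0.45, and 8 differed by at least 2-fold.

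The filter on low values bears on the higher set, since 9 of its genes averaged under 10 over the other 15 libraries, passed through the p52 knockout libraries and so had to differ. ALOX12B, one of these, is a lipoxygenase of the skin barrier, and had 62, 50.9 and 80.6 in the p52 knockout libraries. It averaged 4.88 ± 1.3 in the p50 knockout, 6.13 ± 0.82 in the cRel-labelled, 1.5 ± 0.64 in the RelA and 4.29 ± 1.7 in the RelB-labelled libraries, and 3.46 ± 2.3 in the control. L1CAM averaged 129.7 ± 34 in the p52 knockout and at most 17 in any other group. CACNA1G, a T-type calcium channel, averaged 69 ± 15 in the p52 knockout, 17.8 ± 4.1 in RelB-labelled libraries, the next highest, and 6.46 ± 2.5 in the control. TRIM29 averaged 61.5 ± 0.82 in the p52 knockout, 2.85 ± 1.3 in the p50 knockout and 10.6 ± 0.66 in the control. ABCC3 averaged 111 ± 9.7 in the p52 knockout and 34.1 ± 5.0, 32.5 ± 3.6, 10.6 ± 0.83 and 37.4 ± 9.7 in the p50, cRel-labelled, RelA and RelB-labelled libraries, against 10.5 ± 3.8 in the control. TMPRSS6, DAB2IP, FABP6, NRP2, SPTB, BAI2 and CSRP2 completed the 12 with the largest smallest difference. DAB2IP, a RAS GTPase-activating protein, averaged 54.2 ± 5.1 in the p52 knockout and 10.2 ± 4.1 in the control, and NRP2, a coreceptor for semaphorins and VEGF, averaged 93.2 ± 15 in the p52 knockout and 21.7 ± 6.2 in the control.

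Several genes described above were in the higher set, among them CD84, IL15, IFNGR1, IL2RG, DTX4 and BNIP3L. CCND1 averaged 1185 ± 108 in the p52 knockout, and 673 ± 8.4, 642 ± 70, 441 ± 26 and 606 ± 19 in the p50, cRel-labelled, RelA and RelB-labelled libraries, against 473 ± 50 in the control. IL7 averaged 281 ± 4.0 in the p52 knockout. Its next highest group was the RelB-labelled one, at 203 ± 24, and the control stood at 102 ± 12. LTB was 379 ± 83 in the p52 knockout, nearest in the cRel-labelled libraries at 284 ± 17 (log2 difference 0.39, adjusted p = 0.043), and 159 ± 14 in the control. By contrast BCL2, SLAMF1 and TNFRSF13C were not in the set, and the RelB-labelled libraries were higher still, with 7103 ± 80, 9704 ± 289 and 1050.1 ± 70. The higher set held 5 of 37 MAP kinase and RAS regulators (MAPK11, SPRED1, RASGRP3, RRAS and RRAS2) and 5 of 33 EBV NF-kB targets (CFLAR, FAS, PLEK, PTPN1 and CCL17). It also held 3 of 29 canonical pathway genes (TNIP2, OTULIN and MAP3K8) and 3 of 24 TNF receptor genes (FAS, NGFR and TNFRSF10D). The share over all genes tested was 1.95%. Neither that share nor the counts of the lists were cleared of the 9 genes that passed the filter through the p52 knockout libraries. Other lists held such genes too, with 3 of 30 glycolysis and hypoxia genes, 3 of 35 interleukin and interferon receptor genes and 5 of 61 ion channel genes. None of the 42 DNA replication or 40 mitotic genes was in the set. RRAS, RRAS2, PTPN1 and NGFR were named after their values were seen.

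**Figure D5:**
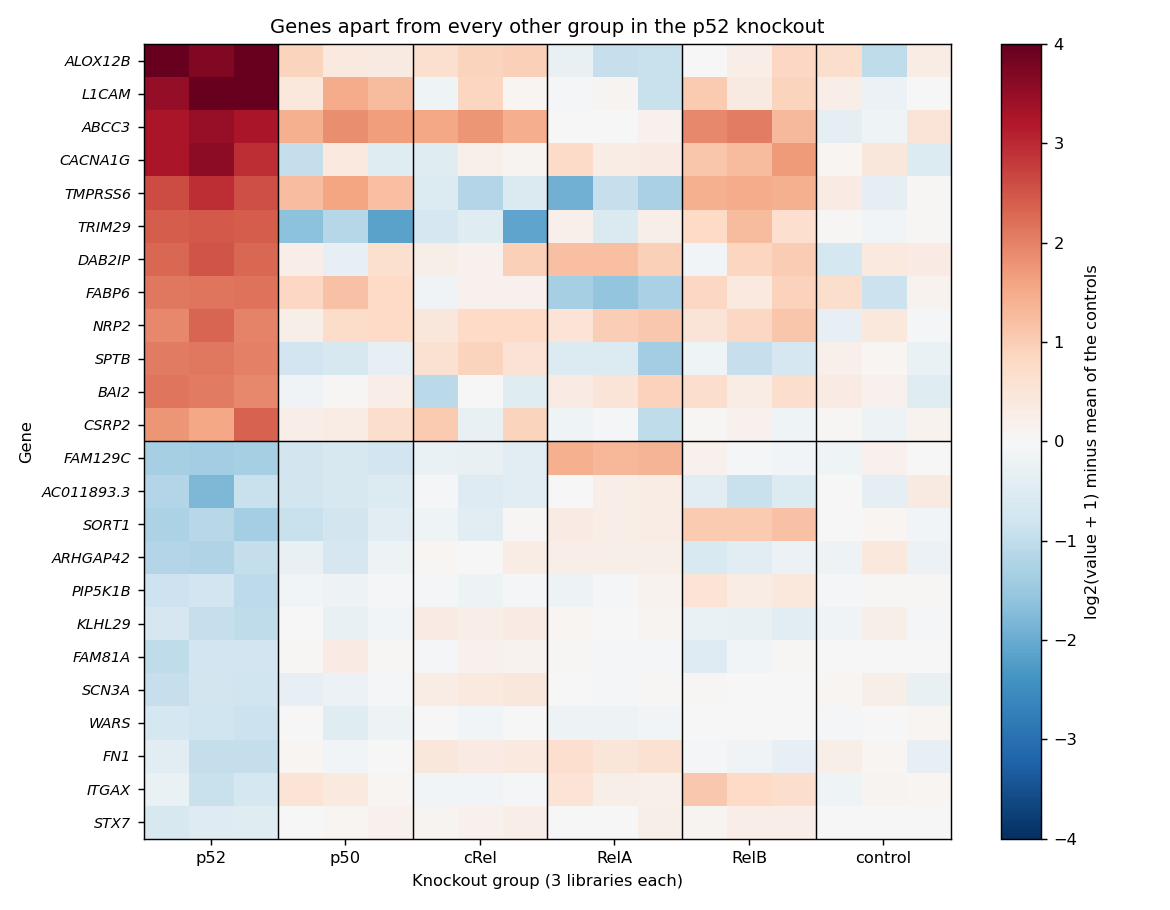
Log2(value + 1) minus the mean of the 3 controls, by library, for the 12 higher and 12 lower genes that stood furthest apart in the p52 knockout, with the p52 knockout at the left and the control at the right. The rows were chosen by their differences between these groups, so the upper rows are red in the 3 p52 knockout libraries and paler elsewhere, and the lower rows are blue there. ALOX12B, which reaches about 4, is one of the 9 higher genes that averaged under 10 over the other 15 libraries and so had to differ.

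The lower set changed less. PIP5K1B, which makes the membrane lipid PIP2, averaged 166 ± 16 in the p52 knockout and 282 to 410 in the other knockouts, with 305 ± 16 in the control. WARS, the tryptophanyl-tRNA synthetase and the most abundant of the 12, averaged 4363 ± 196 in the p52 knockout, 6439 ± 976, 7335 ± 312, 6695 ± 210.3 and 7408 ± 21 in the p50, cRel-labelled, RelA and RelB-labelled libraries, and 7517 ± 295 in the control. SORT1, the sorting receptor sortilin, averaged 74 ± 6.3 in the p52 knockout, 377 ± 16 in RelB-labelled libraries and 177 ± 13 in the control. FAM129C averaged 179 ± 2.8 in the p52 knockout, 1184 ± 47 in the RelA knockout and 461 ± 56 in the control. STX7, an endosomal fusion protein, averaged 817 ± 51 in the p52 knockout and 1193 ± 4.4 in the control, with 1189.8, 1198 and 1190.5 in the 3 controls. ITGAX, the integrin CD11c, averaged 110.0 ± 25 in the p52 knockout, 308 ± 43 in RelB-labelled libraries and 167 ± 17 in the control. ARHGAP42, AC011893.3, KLHL29, FAM81A, SCN3A and FN1 were the other 6. CHORDC1, HSPH1, PDIA4, PMAIP1, VAV3 and RPL17 were also in the lower set. CHUK was in this set, with 1204 ± 39 in the p52 knockout and 1363 to 1698 in the other knockouts, but its differences from the p50 knockout (log2 difference -0.20, adjusted p = 0.031) and the RelB-labelled libraries (log2 difference -0.18, adjusted p = 0.032) were small.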

How the data were processed

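Polyadenylated RNA was isolated from 1 µg of total RNA and made into stranded libraries, per the labels' protocols. The submitters' processing notes name STAR 2.5.2b, featureCounts 1.5.1, DESeq2 1.14.1 and GRCh37, while the sources used here do not give the annotation release, the gene filter or the strand setting. The deposited values are a signal, the authors' normalised read count per gene. Each of the 308790 values was a whole multiple of 1 step per library within 0.0001 of a read, which recovered the reads and the depth.

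All 18 libraries were fitted together with limma 3.58.1 (R 4.3.3, with trend) on log2(value + 1), and genes with a mean of at least 10 were called where the p adjusted by Benjamini-Hochberg was under 0.05. Fold changes are on that scale and understate low genes. Values with ± are mean ± SD over 3 libraries. Genes standing apart in the p52 knockout passed in all 5 direct contrasts. Scripts were tested on simulated data.

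Named were NF-kB, IkB and non-canonical pathway genes, the 15 largest changes per direction among called genes without overlap and with a higher mean of at least 100, up to 5 called genes with the smallest p per described list, and the 12 genes per direction standing furthest apart with a higher mean of at least 50. Members, lists and the choice of lists described were made with earlier results of these data known. Alternatives were edgeR 4.0.16 and DESeq2 1.42.0 on recovered reads, other pseudocounts, filters and scaling, the 6 libraries alone, a replicate block and leaving out libraries. Same-numbered p52 knockout and control libraries had deviations correlated by 0.062, 0.151 and 0.397, and 16 of 18 libraries correlated best with libraries of their own number. The main fit did not take the numbers as pairs, and the replicate block was the alternative that used them. Results for a few genes that the rule names are not reported here.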

Additional observations from a re-analysis of the deposited data

How the results depend on the processing

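The number of genes that differed between p52 knockout and control was 5231 to 6557 over the alternatives against 6295 by limma, with 6381 by edgeR and 6268 by DESeq2, and stayed within 1.5 times in each. Leaving out 1 library at a time gave 5443 to 6195 genes, of which 2579 to 2991 were higher and 2864 to 3204 lower. The genes standing apart in the p52 knockout then numbered 288 to 448, with 175 to 261 higher and 113 to 187 lower. The members changed as well. Without p52 knockout 3, 401 genes stood apart, among them 198 of the 242 higher and 112 of the 156 lower genes. Without p52 knockout 2, 288 stood apart, among them 166 of the higher and 103 of the lower genes. Named genes were followed over the alternatives only against the control. With the replicate number as a block, 6557 genes differed and 458 stood apart. Across groups, 16 of 18 libraries correlated best with libraries of their own number. What libraries of the same number share was not tested. With a mean of at least 100, 42.3% of the calls were higher, against 48.1% with a mean of at least 10. Of 253 called named genes 240 kept their call against the control in every alternative tried, 13 lost it in at least 1 and none changed sign. Those that lost it and are not described above with that value include CD70, CR2, HLA-DQB1, RPL3, RPL12, RPL13 and RPL22. Apart from the NF-kB, IkB and non-canonical pathway genes, named genes were chosen for small p-values or large differences in these data. Their count therefore does not speak for all genes. After quantile normalization, 2383 of the 3028 genes that rose and 2651 of the 3267 that fell kept their call. Depth limits the genes under a mean of 10, which were not tested.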

Other observations

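Families outside the lists above also held changes, and the genes named here were chosen after their values were seen. Ephrins and their receptors, which signal between touching cells, rose at 7 of 12 tested genes and fell at 1. EFNA1 had 58.5, 57.8 and 77 in the p52 knockout libraries and 4.41, 8.87 and 10.3 in the controls, without overlap (log2 fold change 2.94, limma adjusted p = 1.0e-07). Of the 7 GIMAP GTPases of lymphocytes 5 rose, and of 5 guanylate-binding proteins 3 rose. Integrins rose at 10 of 21 and fell at 6 (6 and 6 of 14 with a mean of at least 100), and adhesion molecules rose at 6 of 18 and fell at 7, or 11 and 6 after quantile normalization. ICAM1, the ligand of LFA-1, averaged 5364 ± 669.9 in the p52 knockout and 4946 ± 169.8 in the control and did not pass (adjusted p = 0.23).

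Histone genes fell at 10 of 21 (47.6%), and sterol and fatty acid synthesis genes fell at 13 of 28 (46.4%) and rose at 2, against 26.4% of all genes that fell. Ion channel genes rose at 27 of 61 (44.3%) and fell at 5, against 24.5% of all genes that rose. Zinc-finger genes rose at 106 of 401 and fell at 31, so that 26.4% rose, near the share of all genes, and 34.2% were called, against 50.8% of all genes.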
